A study of Mus musculus with 12 samples.

Results

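The comparison set 3 libraries labelled NLRC3 KO with LPS against 3 libraries labelled WT in medium, 6 of the 12 RNA-seq libraries of a study of mouse bone marrow-derived macrophages (BMDMs). The libraries were selected on the measured levels of LPS-response genes, which were low in both groups, so the levels of those genes are given as a description and no test is drawn from them. The macrophages were grown from marrow of femurs and tibias in RPMI 1640 with serum and recombinant M-CSF. All mice carried loxP-flanked alleles of Nlrc3 (NLRC3fl/fl). In the WT medium group the mice lacked LysM-Cre and the cells received no LPS. In the group labelled KO LPS the mice carried LysM-Cre and the cells received LPS for 12 h. The other groups, used here only for scale, were WT LPS, from mice without LysM-Cre and with 12 h of LPS, and labelled KO medium, from mice with LysM-Cre and no LPS. LysM-Cre is driven by the lysozyme M promoter, which is active in myeloid cells, so cells of other lineages in a marrow culture keep their Nlrc3 alleles. As labelled, the groups differ in both genotype and treatment, and these effects cannot be told apart in this contrast. Each group had 3 libraries numbered 1 to 3. The labels do not say that these came from separate mice. Xist and Y-linked transcripts, given below, show more than 1 source in each group, and p-values measure the spread between these libraries, which may be partly technical.

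LPS, a component of the outer membrane of Gram-negative bacteria, is sensed by TLR4 with its partner MD-2 (Ly96), and macrophages answer with inducible nitric oxide synthase, interleukins, chemokines and, through type I interferon, a wave of interferon-stimulated genes. NLRC3 is a NOD-like receptor described as a brake on Toll-like receptor and STING signalling. Bone marrow also holds granulocyte, megakaryocyte and B lineage cells and their precursors, which can persist in a macrophage culture.

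The 6 libraries held between 13082947 and 19515275 counted reads, and 13773 genes passed the filter on low counts. A total of 3 reads, taken as the lower limit of detection for counting error alone, corresponded to 0.154 to 0.229 CPM, which are counts scaled to a library total of 1000000 reads. Fold changes come from edgeR's quasi-likelihood fit to all 12 libraries with TMM scaling and are log2 values, labelled KO LPS minus WT medium, with their standard errors (SE). Adjusted p-values are Benjamini-Hochberg values over all genes tested, with a threshold of 0.05.

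Nlrc3, the targeted gene, was read at 9.89, 13.6 and 10.4 CPM in WT medium 1, 2 and 3, while libraries 1, 2 and 3 labelled KO LPS held 15.6, 8.29 and 6.04 CPM. The ranges overlapped, and the highest value of all belonged to a library labelled KO. The fitted log2 difference was -0.12 ± 0.50 (SE, n = 3 against 3; 95% interval -1.21 to 0.97; adjusted p = 0.981, edgeR). The other groups of the series were lower, at 0.796, 4.39 and 1.40 CPM in WT LPS, and the libraries labelled KO medium held 0.996, 0.850 and 0.876 CPM. Labelled KO LPS 2 and 3 were below every WT medium library, and without library 1 the difference was -0.62. All 3 libraries labelled KO LPS were above every WT LPS library, so Nlrc3 was not lower with the KO label at the same labelled treatment. The sources do not name the deleted exons, and gene-level counts can include reads from exons outside them.

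The genes that chose the groups were low in both. Nos2, the inducible nitric oxide synthase, was read at 5.94, 3.90 and 8.35 CPM in WT medium, and the libraries labelled KO LPS held 5.43, 1.42 and 0.689 CPM, while the WT LPS libraries held 2153, 831 and 2704 CPM. Il1b, the precursor of interleukin 1 beta, stood at 267, 86.7 and 398 CPM in WT medium and at 89.7, 88.6 and 82.9 CPM in labelled KO LPS, against 2915, 630 and 4005 CPM in WT LPS. In both genes the libraries labelled KO LPS lay within or under the range of WT medium. Ifit2, an interferon-induced antiviral protein, was 314, 171 and 194 CPM in WT medium and 163, 144 and 171 CPM in labelled KO LPS. It was 3930, 4124 and 4273 CPM in WT LPS. The remaining genes of the fixed set behaved alike in level: Il6 did not pass 2.44 CPM in any of the 6 libraries, Il10 did not pass 7.74, Cxcl10 39.4, Ccl5 58.7, Tnf 104 and Acod1, which makes itaconate, 134 CPM. Summed over the 32 LPS-induced genes listed, WT medium held 963, 1636 and 1491 CPM and labelled KO LPS 2201, 917 and 1116 CPM, against 24441 to 50411 CPM in WT LPS. The libraries labelled KO medium, which by label received no LPS, held 40644 to 54401 CPM. Over 40 interferon-stimulated genes the sums were 6392, 5527 and 5060 CPM in WT medium and 5578, 4348 and 6964 CPM in labelled KO LPS, against 49090 to 55456 CPM in WT LPS and 42210 to 67085 CPM in labelled KO medium. The LPS-response genes thus went against the treatment label in both groups labelled KO. The labels were used as given, and every difference below compares libraries by labels that these genes do not bear out.

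**Figure D1:**
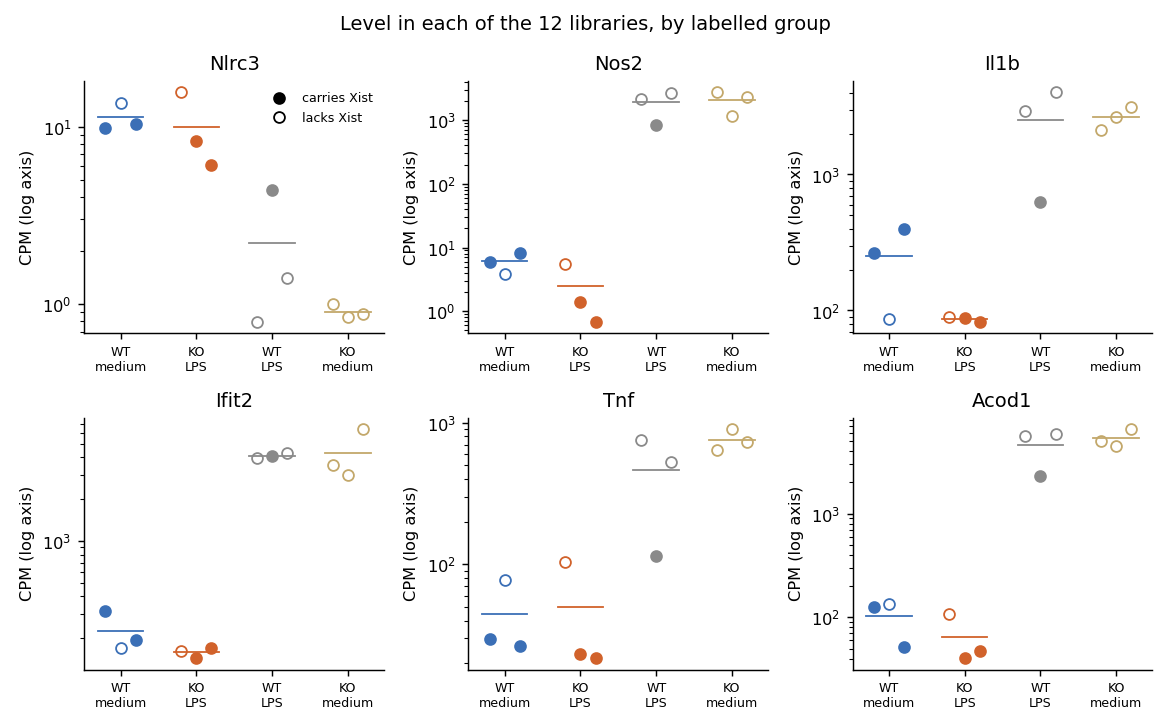
CPM of Nlrc3 and 5 LPS-response genes in each of the 12 libraries (points, log axis), by labelled group; lines are group means, filled points are libraries that carry Xist and open points are libraries that lack it. The 3 libraries labelled KO LPS hold 6.04 to 15.6 CPM of Nlrc3 and at most 5.43 CPM of Nos2, close to WT medium and apart from the other groups.

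Within the low range, libraries of the same group did not all lie together. The chemokine genes Ccl2 and Ccl7, which recruit monocytes, were read at 7.69 and 3.69 CPM in WT medium 1, 19.8 and 12.1 in WT medium 3, and 220 and 182 in WT medium 2. Among the libraries labelled KO LPS they were 284 and 298 CPM in library 1, and 5.24 and 2.02 CPM in library 2, with 4.35 and 1.38 CPM in library 3. In both genes WT medium 2 and labelled KO LPS 1 stood above the other 4 libraries. Tnf showed the same order, at 77.3 and 104 CPM in those 2 libraries and 21.7 to 29.8 CPM in the other 4.

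The same split ran through the whole transcriptome. WT medium 1 and 3 were each other's closest library among all 12 (Pearson's r = 0.987 of log2 CPM across 13773 genes), and so were labelled KO LPS 2 and 3 (0.985). WT medium 2 and labelled KO LPS 1 were closest to each other (0.981), across the group border, and WT medium 1 and 2 reached only 0.905. Genes are not independent replicates, and these values describe the libraries. The split followed Xist, the noncoding RNA of X inactivation in female cells. It was 587 and 634 CPM in WT medium 1 and 3 and 191 and 95.1 CPM in labelled KO LPS 2 and 3, but 0.306 CPM in WT medium 2 and 0.0631 CPM in labelled KO LPS 1, where Y-linked transcripts summed to 82.9 and 105 CPM. Each group thus held 2 libraries with Xist and 1 with Y-linked transcripts. Sex, and anything that goes with it in these cultures, was spread over both groups in the same numbers. Other measures moved with the split: ribosomal protein transcripts took 6.44% and 4.52% of counts in WT medium 2 and labelled KO LPS 1 and 2.59% to 3.55% in the other 4, and the mean gene length weighted by counts was 3.90 and 4.17 kb against 4.57 to 5.03 kb. Their part in the results was not tested.

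**Figure D2:**
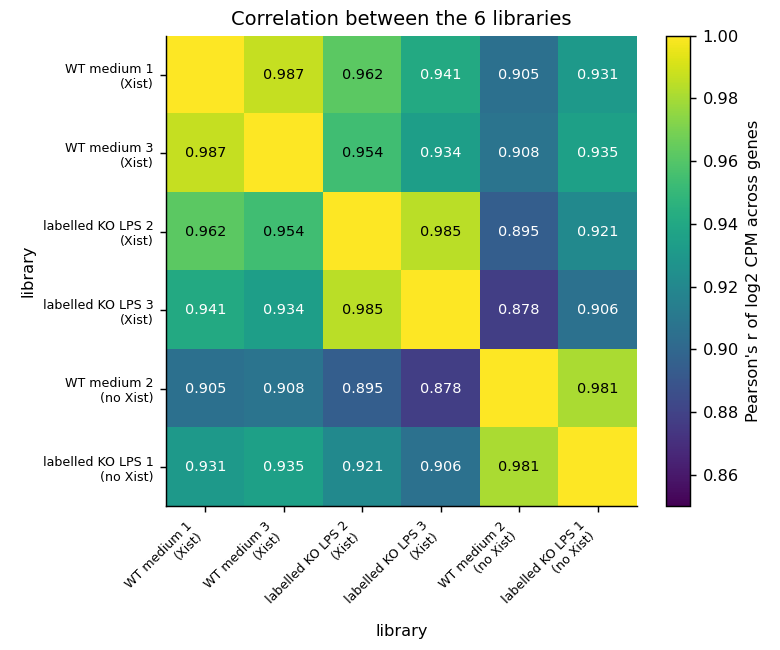
Pearson's r of log2 CPM across 13773 genes between the 6 libraries (color and printed value), ordered by Xist. WT medium 2 and the library labelled KO LPS 1 form a pair at 0.981, above their values with the libraries of their own groups.

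No gene passed the threshold between the groups (0 of 13773 higher and 0 lower, edgeR; 0% called in each direction). At an unadjusted p under 0.05, 530 genes were higher in labelled KO LPS (3.85%) and 605 were lower (4.39%). The CPM ranges of the 3 and 3 libraries did not overlap for 653 genes on the higher side (4.74%) and 593 on the lower side (4.31%), or 9.05% in either direction. With the same fit, WT LPS against WT medium called 1636 genes higher (11.9%) and 890 lower (6.46%). Other tools gave few calls: limma-voom called 0, DESeq2 called 37 genes higher (0.266%) and 2 lower (0.0144%), and edgeR without the filter on low counts called 95 higher (0.351%) and 4 lower (0.0148%). Of the 39 genes called by DESeq2, 33 were highest in labelled KO LPS 3, and of the 99 called without the filter 89 were. The 99 included 21 immunoglobulin genes.

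The count depended on single libraries. Without labelled KO LPS 1, edgeR called 140 genes higher (0.982%) and 105 lower (0.736%), 1.72% in either direction. Without both libraries that lack Xist, a choice added after seeing the data, 78 genes were called higher (0.549%) and 171 lower (1.2%), 1.75% in either direction, with the spread estimated over the remaining 10 libraries. Leaving out any of the 4 Xist-carrying libraries as well brought the count to 0, or to 1 gene on the lower side (0.00672%) without WT medium 1. A fit to those 4 libraries alone called 1895 higher (14%) and 2592 lower (19.1%), 2 against 2.

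The comparison can be read in 2 sets that share no library. Labelled KO LPS 2 and 3 differed from WT medium 1 and 3 by a standard deviation of 0.811 in log2 CPM across genes, and 17.3% of genes differed by more than 1 log2 unit. Labelled KO LPS 1 differed from WT medium 2 by 0.543, with 6.79% of genes past that size. For scale, WT medium 1 and 3 differed by 0.440 and labelled KO LPS 2 and 3 by 0.479, while libraries of 1 group on either side of the Xist split differed by 1.20 (WT medium 1 and 2) and 1.09 (labelled KO LPS 2 and 1). Across all genes these 2 sets of differences were nearly unrelated, with r = 0.0188 and Spearman's rho = -0.0439. Of the 75 genes called higher in the Xist-carrying libraries that were tested in both, 67 (89.3%) were also higher in labelled KO LPS 1 than in WT medium 2, against 50.2% of all genes. Their median difference was 2.59 there and 0.557 between labelled KO LPS 1 and WT medium 2. Of the 171 genes called lower, 50.9% were also lower in labelled KO LPS 1 than in WT medium 2, against 49.8% of all genes, with medians of -1.58 and -0.0044. The higher side thus had the same direction, at a smaller size, in libraries left out of the calls, and the lower side did not. Those libraries did count in the filter over all 12 libraries, which 75 of the 78 genes called higher passed. They therefore had a part in choosing the genes, and genes are not independent replicates. These shares are descriptions of 1 library against 1 and no separate support.

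**Figure D3:**
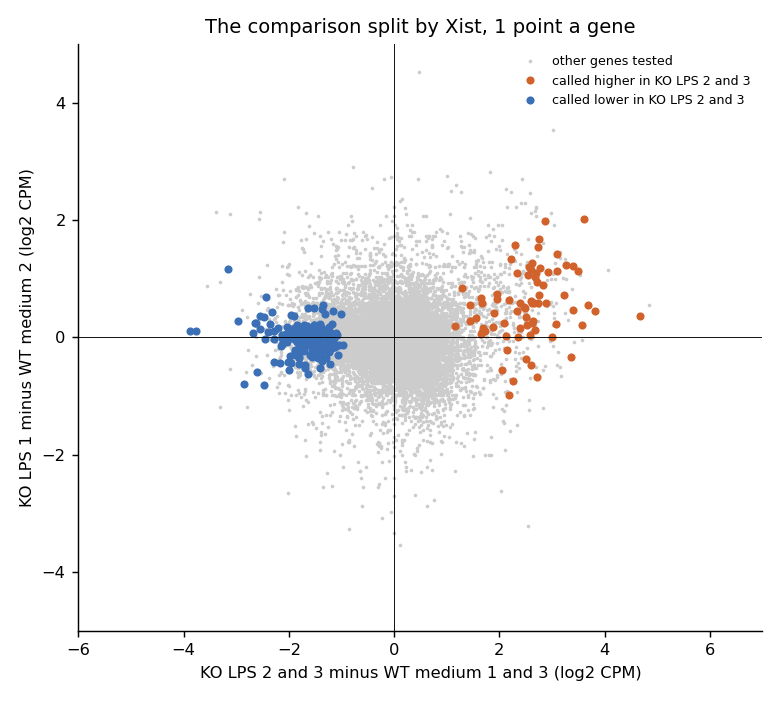
Each point is a gene: the horizontal axis is the log2 CPM difference of labelled KO LPS 2 and 3 minus WT medium 1 and 3, the vertical axis that of labelled KO LPS 1 minus WT medium 2; orange and blue genes were called higher or lower in the first of these. Most orange points (67 of 75) lie above 0 on the vertical axis and the blue points lie around it.

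Several of the genes with the smallest p on the higher side were platelet genes. Platelets bind von Willebrand factor through a complex of GPIb, GPIX and GPV, and fibrinogen through integrin alpha-IIb with beta-3. Gp9, which encodes GPIX, was read at 3.48, 3.67 and 6.03 CPM in WT medium and at 9.03, 21.8 and 29.2 CPM in labelled KO LPS, so every labelled KO LPS library lay above every WT medium library. The log2 difference was 2.28 ± 0.47 (SE, n = 3 against 3; adjusted p = 0.552). Gp5, which encodes GPV, was 7.28, 3.13 and 7.98 CPM against 10.2, 37.0 and 56.2 CPM, a difference of 2.61 ± 0.55 (adjusted p = 0.552). Again labelled KO LPS 1 was the lowest of its group and the ranges did not overlap. Promoters were read for 4 platelet genes (Gp5, Gp9, Ppbp and Treml1) and searched for short GATA-type and ETS-type motifs, families with known roles in megakaryocytes. The 2 windows with a match are printed to show where it lies. The 250 bases before each start site are from RefSeq (GRCm38.p6), read 5′ to 3′ on the gene's strand; capitals mark AGATAA or its reverse TTATCT and AGGAAG or its reverse CTTCCT, motifs that do not overlap each other here. Gp5 lies on the minus strand (chr16:30310782-30311031) and Gp9 on the plus strand (chr6:87777820-87778069).

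Gp5: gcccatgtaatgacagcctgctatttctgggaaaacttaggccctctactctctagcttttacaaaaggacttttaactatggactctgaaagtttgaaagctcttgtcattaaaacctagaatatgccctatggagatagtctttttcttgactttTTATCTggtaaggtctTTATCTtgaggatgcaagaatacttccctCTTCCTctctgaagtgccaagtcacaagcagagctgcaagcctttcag

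Gp9: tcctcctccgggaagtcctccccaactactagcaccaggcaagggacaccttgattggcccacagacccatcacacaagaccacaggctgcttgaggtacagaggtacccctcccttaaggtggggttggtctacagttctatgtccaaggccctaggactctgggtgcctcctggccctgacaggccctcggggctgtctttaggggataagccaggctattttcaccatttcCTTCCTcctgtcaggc

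The Gp5 window held 2 matches of the AGATAA motif and 1 of AGGAAG, and the Gp9 window held 0 and 1. The Ppbp and Treml1 windows held 0 of each, so AGATAA was in 1 and AGGAAG in 2 of the 4 windows. On both strands, 9.99% of 32851 RefSeq promoter windows of this length held AGATAA, 29.5% held AGGAAG and 2.95% held both. A match describes the letters and is no evidence of binding in these cells.

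Itga2b, which encodes integrin alpha-IIb, was read at 38.2, 19.6 and 44.0 CPM in WT medium and 49.1, 184 and 252 CPM in labelled KO LPS (2.37 ± 0.51; adjusted p = 0.552). Treml1, a receptor stored in platelet granules, stood at 7.17, 5.58 and 8.89 against 9.66, 24.5 and 31.0 CPM (1.68 ± 0.39; adjusted p = 0.552). Ppbp, the platelet chemokine CXCL7, stood at 44.2, 25.0 and 58.7 against 68.2, 126 and 146 CPM (1.53 ± 0.49; adjusted p = 0.552). These 5 genes had no overlap between the groups, as had 4.74% of all genes on the higher side. Of 16 listed megakaryocyte and platelet genes 15 were tested. Of these, 13 had an unadjusted p under 0.05 on the higher side and none on the lower, beside 3.85% and 4.39% of all genes. The median log2 difference was 1.88, against 0.04 over all genes tested. A member that is low in WT medium can pass the filter through the libraries where it is high. These values and the counts below thus describe the members tested and are no support by themselves. The list's sum was 416, 579 and 605 CPM in WT medium and 955, 1222 and 1668 CPM in labelled KO LPS. Part of that sum was Pf4, platelet factor 4, which macrophages also express. It was 63.9, 406 and 246 CPM against 658, 192 and 313 CPM, with overlap (0.71 ± 0.76; adjusted p = 0.882). Without Pf4 the sums were 353, 173 and 359 CPM in WT medium and 297, 1030 and 1355 CPM in labelled KO LPS, so labelled KO LPS 1 lay inside the WT medium range. Gp1bb, another GPIb subunit, did not pass the filter and was at most 0.205 CPM in the 6 libraries. In the pair without Xist the list's median was 1.10, the largest of the lists of other cell types named here, and Gp9, Gp5 and Itga2b were 1.14, 1.53 and 1.19 higher in labelled KO LPS 1 than in WT medium 2. Without both libraries that lack Xist, edgeR called 5 of the 15 on the higher side (0.549% of all genes), beside 3 of 23 neutrophil, 3 of 12 B cell, 2 of 13 mast cell, basophil and eosinophil and 2 of 13 dendritic cell genes. The 5 included Gp9 (2.53 ± 0.46; adjusted p = 0.0456), Gp5 (2.71 ± 0.39; adjusted p = 0.0456) and the adhesion factor Vwf (1.56 ± 0.31; adjusted p = 0.0464). Vwf differed by 0.05 in the pair without Xist. In bulk RNA, more cells of a type and more RNA per cell cannot be told apart.

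S100a8, a calcium-binding alarmin of neutrophils and monocytes, was read at 169, 283 and 255 CPM in WT medium and at 307, 1024 and 1146 CPM in labelled KO LPS (1.86 ± 0.57; adjusted p = 0.552). The ranges did not overlap, but labelled KO LPS 1 lay close to the WT medium libraries. Retnlg, a resistin-like hormone of mature neutrophils, was 0.974, 3.21 and 4.63 against 4.54, 52.2 and 51.7 CPM (3.70 ± 0.93; adjusted p = 0.552). Here labelled KO LPS 1 fell inside the WT medium range. Genes of the primary granules, made in promyelocytes, also varied widely within the group: Mpo, myeloperoxidase, was 45.7, 5.66 and 46.3 CPM in WT medium and 13, 308 and 716 CPM in labelled KO LPS (3.57 ± 1.20; adjusted p = 0.552). Elane, neutrophil elastase, was 16.3, 5.04 and 14.3 against 6.37, 74.2 and 161 CPM (2.88 ± 0.90; adjusted p = 0.552). In both, labelled KO LPS 2 and 3 were above all WT medium libraries and labelled KO LPS 1 was not. Camp and Pglyrp1, which encode antibacterial granule proteins, did not overlap between the groups (2.32 ± 0.72 and 2.26 ± 0.69). Lcn2, lipocalin 2, belongs to this list and to the LPS-induced list, and its levels of 55.3, 81.7 and 85.6 against 117, 293 and 334 CPM are given without a test.

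Of 26 listed neutrophil and granule genes 23 were tested. Of these, 18 had an unadjusted p under 0.05 on the higher side (3.85% of all genes) and 0 on the lower (4.39%). Counted without a test, 5 of the same 23 did not overlap between the groups on the higher side (4.74% of all genes). These 5 are not additional to the 18, since the 2 counts can share members. Lcn2, a gene of the LPS-induced list that chose the groups, is among the 23 and among the 5. The counts and medians here thus include it and are a description. The median log2 difference was 2.32 in the whole comparison and 0.36 in the pair without Xist. The sums were 1187, 1193 and 1686 CPM in WT medium and 1500, 6717 and 8317 CPM in labelled KO LPS. The size thus came from labelled KO LPS 2 and 3. Elsewhere in the series, WT LPS 3 held 6928 CPM and labelled KO medium 3 held 4436 CPM. Csf3r, the G-CSF receptor, and Mmp8, neutrophil collagenase, did not follow the list, at 0.58 ± 0.79 and 0.14 ± 0.40 (adjusted p = 0.919 and 0.970).

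The B cell list summed to 309, 311 and 320 CPM in WT medium. In labelled KO LPS it summed to 353, 644 and 1349 CPM, with library 1 the closest to WT medium. Cd79a, a signalling chain of the B cell receptor, was read at 0.974, 1.91 and 1.77 CPM in WT medium and at 2.90, 17.9 and 18.3 CPM in labelled KO LPS (3.13 ± 0.83; adjusted p = 0.552). The ranges did not overlap, with labelled KO LPS 1 just above WT medium. Pax5, the factor that fixes B cell identity, was 1.18, 0.0764 and 0.305 against 0.757, 7.97 and 8.69 CPM, with overlap (3.52 ± 0.90; adjusted p = 0.552). WT medium 2 was under the limit of detection for this gene. Of 15 listed B cell genes 12 were tested, and 10 had an unadjusted p under 0.05 on the higher side (3.85% of all genes). Of the 12, 5 did not overlap on that side (4.74% of all genes). The median was 2.16, and in the pair without Xist it was 0.44.

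Transcripts of antibody-secreting cells came mainly from a single library. Igkc, the kappa constant region, was 39.4, 57.9 and 53.7 CPM in WT medium and 75.7, 79.2 and 664 CPM in labelled KO LPS 1, 2 and 3. Jchain, which joins secreted IgM and IgA, was 4.20, 4.82 and 7.01 against 7.64, 7.91 and 42 CPM. Both were several times higher in labelled KO LPS 3 than in any other of the 6 libraries. Summed over 396 immunoglobulin genes, the 6 libraries held 205, 159 and 267 CPM and 248, 493 and 2675 CPM, and the other 6 libraries of the series 80.3 to 269 CPM. The variable gene Igkv8-21 reached 37.5 CPM in labelled KO LPS 3 and 0.655 CPM in labelled KO LPS 2, and was at most 0.0631 CPM in the other 4. Reads from related immunoglobulin genes may be divided among them by the counting, so single members are uncertain.

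**Figure D4:**
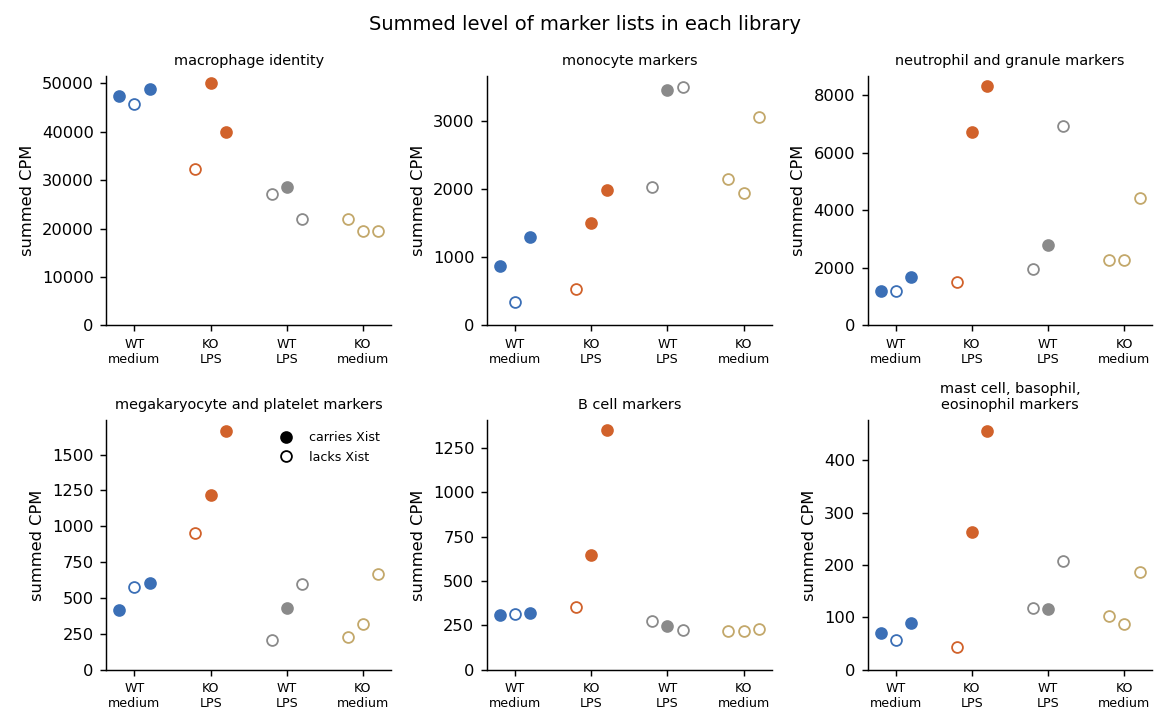
Summed CPM of 6 cell type marker lists in each of the 12 libraries (linear axes from 0), filled where Xist is carried and open where it is not. Within the 2 groups compared, the neutrophil, B cell and mast cell sums are high in labelled KO LPS 2 and 3 and near WT medium in labelled KO LPS 1. The neutrophil sum is also high in WT LPS 3 (6928 CPM) and labelled KO medium 3 (4436 CPM). The mast cell sum is 207 and 186 CPM in those libraries, against 263 CPM in labelled KO LPS 2. Of the platelet sum of 955 CPM in labelled KO LPS 1, Pf4 makes up 658 CPM.

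Prss34, a protease of basophil granules, was read at 9.63, 1.45 and 12.7 CPM in WT medium and at 2.40, 85.3 and 190 CPM in labelled KO LPS (3.70 ± 1.17; adjusted p = 0.552), and Mcpt8, the basophil protease, at 3.59, 1.30 and 6.03 against 1.77, 24.3 and 70.8 CPM (3.29 ± 1.03; adjusted p = 0.552). In both, labelled KO LPS 1 lay inside the WT medium range. Of 18 listed mast cell, basophil and eosinophil genes 13 were tested. Of these, 7 had an unadjusted p under 0.05 on the higher side (3.85% of all genes) and 0 had ranges that did not overlap. The median was 2.25, and -0.06 in the pair without Xist. Not all members had this direction: the eosinophil genes Ccr3, the eotaxin receptor, and Siglecf differed by -1.08 ± 0.62 (adjusted p = 0.701) and -0.75 ± 0.77 (adjusted p = 0.875). The mast cell proteases Mcpt4, Tpsb2, Tpsab1 and Cma1 did not pass the filter.

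Among dendritic cell genes, Ccr7, the receptor that guides cells to lymph nodes, was 4.46, 1.22 and 2.38 CPM in WT medium and 5.68, 19.6 and 24.2 CPM in labelled KO LPS, with no overlap (2.71 ± 0.59; adjusted p = 0.552). Ccr7 is also carried by activated macrophages, and WT LPS held 10.4, 13.1 and 23.4 CPM. Siglech, a plasmacytoid dendritic cell marker, was 2.61, 0.611 and 2.07 against 2.27, 10.2 and 11.2 CPM (2.27 ± 0.59; adjusted p = 0.552). Of 13 dendritic cell genes tested 5 had an unadjusted p under 0.05 on the higher side (3.85% of all genes). The median was 1.28, and 0.43 in the pair without Xist. Clec9a and Itgax lay on the other side (-0.38 ± 0.57 and -0.25 ± 0.89; adjusted p = 0.930 and 0.978). The list's sums overlapped, at 450, 816 and 326 CPM in WT medium and 680, 585 and 717 CPM in labelled KO LPS. Among monocyte genes, Ly6c2, the marker of classical monocytes, was 45.9, 19.9 and 52.0 against 58.3, 163 and 326 CPM, with no overlap (2.34 ± 0.64; adjusted p = 0.552). Ccr2, which brings these monocytes out of the marrow, had overlapping ranges and a difference of the other sign (-1.05 ± 0.65; adjusted p = 0.717). Of 15 monocyte genes 5 had an unadjusted p under 0.05 on the higher side (3.85% of all genes), with a median of 1.01.

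Other lineages were thinner. Gata1, a factor of megakaryocytes, erythroid cells and mast cells, was 1.74, 1.30 and 3.66 CPM in WT medium and 2.84, 11.4 and 20.6 CPM in labelled KO LPS (2.50 ± 0.61; adjusted p = 0.552). Of 14 listed erythroid genes 6 were tested, and 2 had an unadjusted p under 0.05 on the higher side (3.85% of all genes). They were Gata1 and the erythropoietin receptor Epor (2.20 ± 0.68; adjusted p = 0.552), and the list median was 0.82. Globin genes were low: Hbb-bs did not pass 1.42 CPM and Hba-a1 1.30 CPM in any of the 6 libraries, and Car1 was at 0 in all of them. Of 15 T and NK cell genes tested, 0 had an unadjusted p under 0.05, and their sums were 109, 7.41 and 57.9 CPM against 14.9, 175 and 248 CPM. Most of that sum was Cd4, at 80.6, 4.28 and 45.4 against 9.91, 150 and 204 CPM. The libraries without Xist were the lowest, and on each side of the Xist split the libraries labelled KO LPS were above WT medium. Of 18 stromal and fibroblast genes, 1 had an unadjusted p under 0.05, on the lower side (4.39% of all genes), a share near the background. That gene was Postn, periostin, a matrix protein, at 3.18, 1.38 and 3.78 CPM in WT medium and 0.947, 0.546 and 0.159 CPM in labelled KO LPS (-2.20 ± 0.78; adjusted p = 0.568). Of 12 listed endothelial and adipocyte genes 6 were tested, and 2 had an unadjusted p under 0.05 on the higher side (3.85% of all genes). They were the endothelial genes Esam (1.60 ± 0.49) and Tie1 (2.35 ± 0.77). Of 11 osteoclast genes 1 did, Itgb3, which is also the platelet integrin beta-3 (1.88 ± 0.60; adjusted p = 0.552).

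Macrophage identity was present in all 6 libraries. Lyz2, lysozyme M, was read at 24168, 30270 and 27360 CPM in WT medium and at 15279, 25972 and 13343 CPM in labelled KO LPS (-0.53 ± 0.42; adjusted p = 0.816). Csf1r, the M-CSF receptor, stood at 3551, 1365 and 3790 against 1955, 3843 and 4246 CPM (0.34 ± 0.36; adjusted p = 0.882), and Adgre1, which encodes F4/80, at 1543, 389 and 1634 against 558, 1562 and 1808 CPM (0.29 ± 0.57; adjusted p = 0.956). For Csf1r and Adgre1 the low libraries were WT medium 2 and labelled KO LPS 1, whatever the group. Per gene length, in the deposited FPKM, Csf1r averaged 685 ± 250 (SD, n = 3) in labelled KO LPS, against 29.6 ± 18.9 for Itga2b, 101 ± 103 for Mpo and 8.94 ± 6.02 for Cd79a in the same libraries. Neutrophil alarmins were not low on this scale: S100a9 averaged 3074 ± 1867 and S100a8 1190 ± 653 FPKM. All 23 listed macrophage genes were tested, 0 had an unadjusted p under 0.05, and 2 did not overlap, Cd68 (0.42 ± 0.26) and Cebpa (0.53 ± 0.33), both on the higher side (4.74% of all genes), a share near the background. The median was 0.29. The sum was 47453, 45856 and 48909 CPM in WT medium and 32361, 50056 and 40014 CPM in labelled KO LPS.

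The study's title asks about glycolytic genes. Of 18 listed glycolytic enzymes 17 were tested, 0 had an unadjusted p under 0.05 and 0 had ranges that did not overlap, with a median log2 difference of 0.21. The median took the other sign on leaving out 1 library (range -0.09 to 0.34). Ldha, which turns pyruvate into lactate, was read at 533, 1744 and 684 CPM in WT medium and at 1605, 499 and 572 CPM in labelled KO LPS (-0.15 ± 0.57; 95% interval -1.38 to 1.08; adjusted p = 0.978). Pkm, pyruvate kinase, was 2117, 3337 and 2643 against 4259, 1710 and 2126 CPM (0.05 ± 0.39; 95% interval -0.80 to 0.90; adjusted p = 0.989). For both, the high libraries were WT medium 2 and labelled KO LPS 1. Hk2, the inducible hexokinase, differed by 0.29 ± 0.30 (95% interval -0.36 to 0.94; adjusted p = 0.874). Its values were 74.3, 45.1 and 78.8 against 52.4, 83.6 and 89.2 CPM, lowest in WT medium 2 and labelled KO LPS 1. Pfkfb3, which makes the activator of phosphofructokinase, differed by 0.10 ± 0.49 (adjusted p = 0.984) and the glucose transporter Slc2a1 by -0.26 ± 0.50 (adjusted p = 0.954). The intervals of these genes include changes of close to 1 log2 unit in at least 1 direction, so equality is not shown. Hk1, the constitutive hexokinase, had the smallest p of the enzymes (0.53 ± 0.29; adjusted p = 0.672).

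Of 17 tested genes that move glucose or lactate or that regulate glycolysis, 1 had an unadjusted p under 0.05. It was Slc2a3, the glucose transporter of platelets, neutrophils and activated lymphocytes, at 16.5, 6.57 and 20.8 CPM in WT medium and 16.5, 65.2 and 85.1 CPM in labelled KO LPS (2.06 ± 0.61; adjusted p = 0.552). Hif1a, which drives glycolytic genes in LPS-activated macrophages, was 172, 46.5 and 275 against 76.7, 64.9 and 81.2 CPM (-0.98 ± 0.49; adjusted p = 0.639). WT medium 1 and 3 were above all libraries labelled KO LPS and WT medium 2 below them. Among 23 genes of the HIF list 1 was lower at an unadjusted p under 0.05, the collagen lysyl hydroxylase Plod2 (-1.40 ± 0.47; adjusted p = 0.552), with a list median of -0.26. In the tricarboxylic acid cycle, 1 of 24 genes had an unadjusted p under 0.05. This was the mitochondrial isocitrate dehydrogenase Idh2, at 42.6, 51.8 and 45.1 against 65.0, 90.3 and 82.2 CPM, with no overlap (0.82 ± 0.24; adjusted p = 0.552). Of 29 genes of the PI3K, AKT and mTOR pathway, Akt1 was on the higher side (0.52 ± 0.21; adjusted p = 0.588) and Rictor, the defining subunit of mTORC2, on the lower (-1.11 ± 0.40; adjusted p = 0.568) at an unadjusted p under 0.05. These counts by unadjusted p, at most 1 gene per list and direction, are near the shares over all genes (3.85% higher and 4.39% lower). By overlap of ranges, 3 of the 24 tricarboxylic acid cycle genes lay apart on the higher side (4.74% of all genes). On the lower side 2 of the 23 HIF genes did (4.31% of all genes). The transport and regulator list had 1 of 17, higher, and the PI3K, AKT and mTOR list 0 of 29.

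Genes of LPS sensing were listed apart from the LPS-induced genes, but the lists of this paragraph also differed with LPS. The Toll-like receptor signalling list summed to 3956, 2393 and 4051 CPM in WT medium and 5737, 4164 and 5968 CPM in WT LPS. The NLR, inflammasome and STING list summed to 1383, 885 and 1409 against 2705, 2527 and 3493 CPM. The groups were selected for low LPS-response genes, so the values of both lists are a description. Tlr4, the LPS receptor, was read at 135, 53.1 and 128 CPM in WT medium and at 45, 47.5 and 27.2 CPM in labelled KO LPS, with no overlap (-1.27 ± 0.43; 95% interval -2.20 to -0.34; adjusted p = 0.552). WT medium 2 lay close to the libraries labelled KO LPS. Ly96, the MD-2 partner, was 16.6, 26.8 and 18.8 against 18.8, 5.95 and 4.03 CPM (-1.06 ± 0.52; adjusted p = 0.630). Without both libraries that lack Xist it was called lower (-1.72 ± 0.35; adjusted p = 0.0466). Tlr3, the endosomal sensor of double-stranded RNA, did not overlap (-1.03 ± 0.39; adjusted p = 0.571), and Tlr7, the sensor of single-stranded RNA, did (-1.10 ± 0.40; adjusted p = 0.569). Lbp, which carries LPS to CD14, was 1.84, 0.611 and 2.38 against 1.58, 10.8 and 14.8 CPM (2.61 ± 0.68; adjusted p = 0.552). Like Ly96, Tlr7 was called lower without both libraries that lack Xist (-1.53 ± 0.32; adjusted p = 0.0490). Lbp was called higher there (2.70 ± 0.41; adjusted p = 0.0456). That fit called 0.549% of all genes higher and 1.2% lower. Of 31 Toll-like receptor signalling genes, 1 was higher and 3 lower at an unadjusted p under 0.05 (3.85% and 4.39% of all genes). The list's median was 0.04, the same as over all genes. Of 24 tested genes of the NLR, inflammasome and STING list 1 was lower, Aim2, the sensor of cytosolic DNA, at 59.7, 39.4 and 51.8 against 35.4, 30.3 and 21.6 CPM (-0.69 ± 0.29; adjusted p = 0.595). Casp4, the mouse sensor of cytosolic LPS also known as caspase-11, did not overlap either (-0.76 ± 0.42; adjusted p = 0.689). The list median was -0.17, and 1 lower gene of 24 is near the share over all genes (4.39%).

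Slc7a5, a leucine transporter under ATF4, was read at 3.95, 11 and 4.75 CPM in WT medium and at 17.2, 17.6 and 27.5 CPM in labelled KO LPS, with no overlap (1.67 ± 0.47; adjusted p = 0.552). Phgdh, the entry enzyme of serine synthesis, was 3.07, 2.14 and 3.35 against 3.85, 8.90 and 14.3 CPM (1.75 ± 0.59; adjusted p = 0.552). Shmt2, the mitochondrial serine hydroxymethyltransferase, was 30.7, 21 and 31.9 against 33.5, 39.3 and 50.6 CPM (0.66 ± 0.23; adjusted p = 0.556). Of 19 tested genes of the ATF4 and amino acid list, 7 had ranges that did not overlap, all higher (4.74% of all genes). On the same side 3 had an unadjusted p under 0.05 (3.85% of all genes). The median was 0.50 in the whole comparison and 0.31 in the pair without Xist. The cystine transporter Slc7a11 lay on the other side (-1.16 ± 0.58; adjusted p = 0.639). Fasn, fatty acid synthase, was 51.4, 49.99 and 44.3 against 70.4, 91 and 96.4 CPM, with no overlap (0.89 ± 0.23; adjusted p = 0.552), and Srebf1, the factor that controls it, was 44.0, 42.7 and 41.3 against 50.7, 62.0 and 72.8 CPM (0.60 ± 0.25; adjusted p = 0.588). The replicates within each group were close for these genes compared with the marker genes above. Of 22 genes of cholesterol efflux and LXR targets 4 had an unadjusted p under 0.05 on the higher side (3.85% of all genes) and 4 did not overlap (4.74% of all genes), with a median of 0.33. Of 23 genes of cholesterol synthesis 0 did either, with a median of 0.15 in the whole comparison and -0.40 in the pair without Xist.

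The immediate early genes Egr1 and Klf2 did not overlap. Egr1 was 11.7, 6.57 and 9.08 CPM against 14.5, 30.1 and 15 CPM (1.22 ± 0.47; adjusted p = 0.571), and Klf2, a quiescence factor, was 13.8, 14.9 and 16.6 against 22.1, 26.7 and 28.8 CPM (0.85 ± 0.34; adjusted p = 0.586). Of 27 genes of that list 4 had an unadjusted p under 0.05 on the higher side (3.85% of all genes), with a median of 0.35. Of 40 cell cycle genes 2 were higher and 1 lower at that level, near the shares over all genes (3.85% and 4.39%), with a median of 0.30. Ccnd3, a D-type cyclin prominent in lymphoid and other blood lineages, was 46.1, 31.9 and 45 against 42.5, 95.3 and 123 CPM (1.18 ± 0.34; adjusted p = 0.552), and the spindle checkpoint kinase Bub1 was lower in all 3 (-1.25 ± 0.48; adjusted p = 0.571). In antigen presentation by MHC class II, 1 of 15 genes had an unadjusted p under 0.05, on the higher side (3.85% of all genes). This was H2-Ob, a chaperone chain of B cells and dendritic cells, at 1.18, 0.688 and 1.04 against 1.33, 8.35 and 6.47 CPM (2.55 ± 0.67; adjusted p = 0.552). Of the 15, H2-Ob alone did not overlap on the higher side (4.74% of all genes), and 2 did not on the lower (4.31%).

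**Figure D5:**
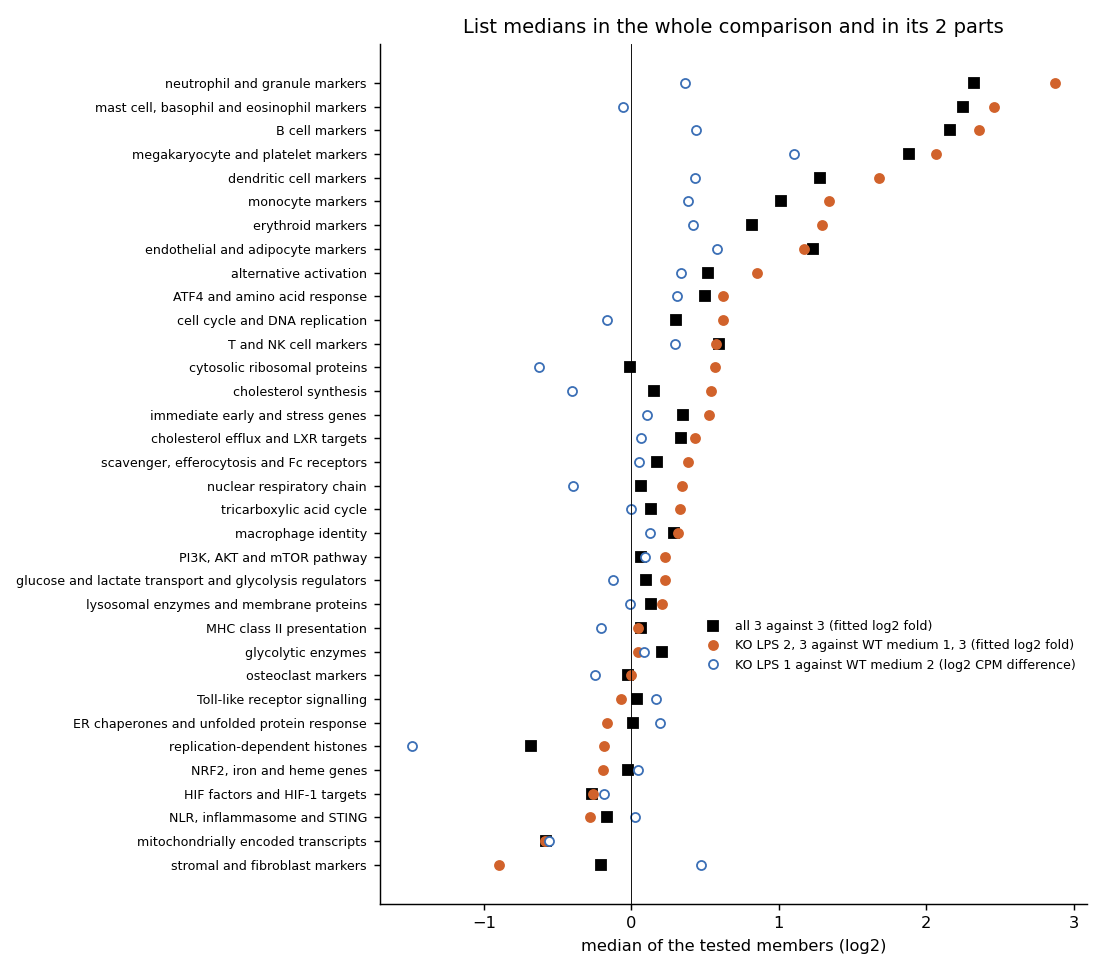
Median log2 difference of the tested members of each list, labelled KO LPS minus WT medium: all 3 against 3 libraries (black), labelled KO LPS 2 and 3 against WT medium 1 and 3 (orange, fitted without the 2 libraries that lack Xist) and labelled KO LPS 1 against WT medium 2 (open blue). The marker lists of other lineages stand highest, the platelet list keeps 1.10 in the blue comparison, and the ribosomal protein list has opposite signs, 0.57 and -0.62.

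Some lists had opposite signs in these 2 sets. Ribosomal protein genes had a median of -0.01 over all libraries, with 0 of 45 at an unadjusted p under 0.05, but 0.57 in the libraries with Xist and -0.62 in the pair without. The whole comparison thus averaged differences of opposite sign. Mitochondrially encoded transcripts did not: their median was -0.58 over all libraries, -0.59 with Xist and -0.56 without. Their share of counts was 1.44%, 1.28% and 1.46% in WT medium and 1.17%, 1.05% and 0.665% in labelled KO LPS, so the ranges did not overlap. Of 13 tested, 1 had an unadjusted p under 0.05, on the lower side (4.39% of all genes). It was mt-Nd5, a subunit of complex I, at 1498, 1182 and 1483 against 863, 1041 and 700 CPM (-0.59 ± 0.25; adjusted p = 0.595). Replication-dependent histones had a median of -0.68 and came from WT medium 2, whose sum of 610 CPM compared with 123 to 208 CPM in the other 5 libraries. These transcripts lack poly(A) tails, and the part of library preparation was not tested.

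The 10 genes with the smallest p in each direction, at 5 CPM or more in the higher group and with no overlap, were listed after their values were seen, since the planned rule on called genes named none. On the higher side, beside Gp9, Gp5, Itga2b and Ccr7, they were Nrgn, S1pr4, Tesc, Ly6d, Ly6g6f and Rbpms2. Nrgn, neurogranin, a calmodulin-binding protein, had the smallest p of them, at 15.1, 10.8 and 13.7 CPM in WT medium and 19.7, 44.3 and 55.6 CPM in labelled KO LPS (1.68 ± 0.32; adjusted p = 0.552). S1pr4, a sphingosine 1-phosphate receptor of blood cells, was 1.79, 1.61 and 1.46 against 3.72, 9.44 and 10.3 CPM (2.34 ± 0.46; adjusted p = 0.552). Ly6d, an early B lineage marker, was 1.38, 1.15 and 1.34 against 3.09, 11.8 and 16.6 CPM (3.10 ± 0.68; adjusted p = 0.552). In all 10 genes the lowest library labelled KO LPS was number 1.

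On the lower side the 10 genes were Trim5, Phip, Yod1, Zfp738, Trim12c, Pcmtd1, Slfn9, Zbtb6, Dsel and Cept1. Slfn9, Cept1 and Trim12c were higher in WT LPS than in WT medium (3.29, 2.02 and 1.21; adjusted p = 6.07e-05, 0.000206 and 0.0154, edgeR). Ccr7 of the higher side was too (3.17; adjusted p = 0.00384, edgeR). The groups were selected for low LPS-response genes, so the values of these genes are a description. Trim5, of a family of viral restriction factors, was 16.6, 8.33 and 19.1 CPM in WT medium and 6.63, 4.86 and 3.87 CPM in labelled KO LPS (-1.39 ± 0.33; adjusted p = 0.552). Its relative Trim12c was 54.8, 30.7 and 50.8 against 27.0, 16.4 and 14.0 CPM (-1.13 ± 0.30; adjusted p = 0.552). The 2 lie near each other on chromosome 7 and have similar sequences, so reads may be divided between them. Phip, a reader of chromatin marks, was 83.5, 33.3 and 97.9 against 29.2, 28.9 and 14.0 CPM (-1.43 ± 0.37; adjusted p = 0.552). In each of the 10 genes WT medium 2 was the lowest WT medium library, close to the range of labelled KO LPS. Cept1, which makes phosphatidylcholine and phosphatidylethanolamine, had the smallest SE, at 106, 67.6 and 109 against 59.96, 49.7 and 40.6 CPM (-0.80 ± 0.23; adjusted p = 0.552). Genes on the lower side at an unadjusted p under 0.05 had a median length of 6.38 kb, those on the higher side 3.24 kb, and all genes tested 3.87 kb. The part of gene length in the result was not tested.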

How the data were processed

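RNA-seq was measured in 12 libraries, 3 in each of 4 labelled groups. The authors deposited read counts per Ensembl gene and, separately, FPKM values, both on the mouse build mm10, which the submitters' processing notes name. How reads were aligned and assigned to genes, and whether strand was used, is not given in the sources used here. Protocol labels name both an Illumina TruSeq kit and a KAPA Stranded kit, so antisense and overlapping genes are uncertain, as are genes with near-identical copies, such as ribosomal protein and immunoglobulin genes. Gene symbols came with the deposited identifiers. Of 54446 identifiers, 54409 matched GENCODE M21, which gave positions and gene types.

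Deposited counts were tested with edgeR 4.0.16 (R 4.3.3): filterByExpr by group (13773 genes kept), TMM scaling, a quasi-likelihood fit with 1 mean per group over all 12 libraries (8 residual degrees of freedom), and Benjamini-Hochberg adjustment. The fit was run on simulated data with the same spread for all genes and no split within groups. That check therefore does not cover the split between libraries seen here. DESeq2 1.42.0 and limma 3.58.1 (voom) were alternatives, as were library size scaling, no filter, the 6 libraries alone, a sex term, a replicate block and leaving out libraries. Log2 CPM for correlations and for single libraries used TMM and a prior count of 2. A library was taken to carry Xist above 10 CPM. Deposited FPKM served only to compare levels between genes. No pair of libraries of a group agreed within sampling noise.

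The comparison, the gene lists and the tests were chosen with earlier results of these data known. The genes to be named were Nlrc3, the 15 largest called changes in each direction (none was called), in each list the 2 members with the smallest p in each direction, and a fixed set of LPS-response, glycolytic and macrophage genes. List members with an unadjusted p above 0.1 are not described singly unless another part of the rule names them. Genes described beyond these, such as Pf4, Mpo, Elane, Csf3r, Mmp8, Ccl2, Ccl7, Shmt2, Clec9a and Itgax, and the 10 leading genes in each direction, were chosen after their values were seen.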

Additional observations from a re-analysis of the deposited data

How the results depend on the processing

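The count of called genes, 0 in all 12 libraries, remained 0 with library size scaling, limma-voom, the 6 libraries alone and a sex term. Without the filter on low counts it was 99 (95 higher, 4 lower), and with DESeq2 39 (37 higher, 2 lower). Leaving out 1 library gave 0 to 245 called (0 to 140 higher, 0 to 105 lower), the highest without the library labelled KO LPS 1 and 0 without any other. Added after seeing the data, leaving out both libraries that lack Xist gave 249 (78 higher, 171 lower), and the 4 libraries with Xist alone 4487 (1895 higher, 2592 lower). Dropping WT medium 1 as well left 1 (0 higher, 1 lower), and dropping any other of the 4 left 0; a group then has 1 library, assumed to vary like the other groups.

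Same-numbered libraries did not deviate together (correlations of -0.63, -0.62 and 0.37 for numbers 1, 2 and 3), so the numbers do not pair the samples. With the replicate block, 0 genes were called and the difference of Nlrc3 was -0.29.

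Leaving out 1 library moved Nlrc3 between -0.62 and 0.15, Pfkfb3 between -0.34 and 0.46, Slc2a1 between -0.98 and 0.12, Ldha between -0.91 and 0.73, Pkm between -0.46 and 0.35, Csf1r between -0.0045 and 0.61 and Adgre1 between -0.16 and 0.65. Pfkfb3 also took the other sign with library size scaling (-0.059), the 6 libraries alone (-0.020), without both libraries that lack Xist (-0.048) and with the 4 alone (-0.12). Pkm did so with library size scaling (-0.00065), the 6 libraries alone (-0.013), the replicate block (-0.10), limma-voom (-0.013), without both libraries that lack Xist (-0.21) and with the 4 alone (-0.28). Of 80 named genes other than Nlrc3 recomputed under up to 15 settings, 6 changed sign. On leaving out 1 library, list medians ran from -0.18 to 0.72 for cholesterol synthesis, -0.29 to 0.18 for Toll-like receptor signalling, -0.31 to 0.74 for ribosomal proteins and 0.12 to 0.68 for the cell cycle. Depth limits genes under about 0.2 CPM.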

Other observations

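Several abundant macrophage genes differed between the Xist-carrying libraries of the groups and not in the pair without Xist; they were chosen after their values were seen. Cd36, a scavenger receptor for oxidised lipids, was 1198 and 1609 CPM in WT medium 1 and 3 and 450 and 291 CPM in labelled KO LPS 2 and 3, but 1685 CPM in WT medium 2 and 1988 CPM in labelled KO LPS 1. Stap1, a signalling adaptor, was 134 and 145 CPM against 22.9 and 21.9 CPM, and 100 CPM against 107 CPM in the second pair. Hsp90aa1, the inducible HSP90, was 205 and 252 CPM against 67.1 and 35.4 CPM, and 220 CPM against 273 CPM. Without both libraries that lack Xist, edgeR gave log2 differences of -1.81 ± 0.36 for Cd36 (adjusted p = 0.0466), -2.54 ± 0.34 for Stap1 (adjusted p = 0.0456) and -2.05 ± 0.38 for Hsp90aa1 (adjusted p = 0.0456), 2 libraries against 2. With all 6 libraries the adjusted p-values were 0.849, 0.597 and 0.795. A test of the difference between these libraries and the pair was not run.

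Marco, a scavenger receptor of the LPS-induced list and so given without a test, was 9.48, 4.36 and 15.1 CPM in WT medium and 10.7, 135 and 239 CPM in labelled KO LPS 1, 2 and 3. Ptgs2, which encodes cyclooxygenase 2 and is of the same list, was 86.6, 31.5 and 298 CPM against 37.1, 10.1 and 10.4 CPM. The 2 genes therefore had opposite orders in labelled KO LPS 2 and 3.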
